A study of Mus musculus with 28 samples.

Results

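The genes described here are 69 rows of the count table whose names follow those of genes of the motile axoneme, the microtubule core of a beating cilium or flagellum. Most encode its parts or factors that assemble it. They were chosen by name: every symbol made of Dnah, Dnai, Dnaaf, Rsph, Cfap, Tekt or Drc followed by a number, with at least 10 reads summed over the 28 libraries, plus the transcription factor gene Foxj1. This gave 68 genes by name and Foxj1, of 55011 rows in all, and no gene with a Dnai symbol was among them. The pattern also matched Dnah2os, an antisense transcript at the Dnah2 gene, which encodes no axonemal protein and is described apart from the others.

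The libraries are bulk RNA sequencing of sorted mouse medullary thymic epithelial cells (mTECs), stromal cells of the thymus that transcribe genes of many peripheral tissues. Libraries were made from 1000 sorted cells of C57BL/6 thymi after magnetic depletion of cells carrying CD45, the pan-leukocyte surface protein. In wild-type mice an entero-hepato gate (n = 3) and a non-entero-hepato gate (n = 3) were sorted. The study also compared mTECs with Hnf4a, Hnf4g or both removed, 2 related nuclear receptor genes of gut and liver.

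The mTEClo libraries, named post-Aire mTEClo in the labels, had 4 genotypes. Controls were Foxn1cre(+/-)Hnf4a(fl/+)Hnf4g(+/-) (n = 4), mice called Hnf4g-removed here were Foxn1cre(+/-)Hnf4a(fl/+)Hnf4g(-/-) (n = 3), and mice called Hnf4a-removed were Foxn1cre(+/-)Hnf4a(fl/fl)Hnf4g(+/-) (n = 3). The double mutant was Foxn1cre(+/-)Hnf4a(fl/fl)Hnf4g(-/-) (n = 4). The mTEChi libraries were from controls (n = 4) and double mutants (n = 4) of the same genotypes. All of these mice carried Foxn1cre, which drives recombination in thymic epithelium, and the controls also carried 1 altered copy of each Hnf4 gene, so no mTEClo or mTEChi library was wild type. The Hnf4g alleles are not written as floxed. The ages of the mice and the sorting antibodies are not stated in the labels used here.

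In a motile axoneme, outer and inner dynein arms on the doublet microtubules produce sliding, and the nexin-dynein regulatory complex, radial spokes and central apparatus turn sliding into a regulated beat. Tektins and other microtubule inner proteins line the inside of the doublets, and cytoplasmic assembly factors (Dnaaf proteins and some Cfap proteins) build the dyneins before they enter the cilium. Foxj1 and the RFX factors are transcription factors known to activate motile-cilium genes, and in the thymus some mTECs, called mimetic cells, transcribe programs of peripheral cell types such as ciliated cells.

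Libraries held 4330120 to 8342583 counted reads, and summed reads per member over all libraries ran from 54 for Dnaaf4 to 20102 for Cfap20, so precision is low for the rarest members. Read levels below are CPM (reads scaled to a common library total) on libraries scaled by edgeR's TMM method. Hnf4a was at 2.25 to 6.86 CPM in control mTEClo, 2.55 to 4.71 in Hnf4a-removed and 2.24 to 4.22 in double-mutant mTEClo, ranges that overlapped. Hnf4g was at 9.0 to 15.6 CPM in control, 7.57 to 8.77 in Hnf4g-removed and 3.19 to 8.29 in double-mutant mTEClo. In mTEChi, Hnf4a was at 1.01 to 7.4 CPM in control and 1.51 to 6.99 in double-mutant libraries, and Hnf4g at 15.3 to 22.4 and 5.19 to 12.8. Reads were counted over whole genes and the labels do not say which exons were removed, so reads left in a mutant do not check the deletion. Epcam, the epithelial marker of the sorted cells, was at 639 to 2240 CPM and Ptprc, the gene for CD45, at 7.19 to 47.1 CPM over the 28 libraries.

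Per kilobase of exon and as a mean over the 28 libraries, the members spanned a wide range of levels, and the most abundant on this scale were not dyneins. The order rests on dividing by exon length. In plain CPM the heavy chain gene Dnah9 (15.9 kb of exon) was at 53.8, below only Cfap20 (110) and Cfap36 (67.7). Cfap20, which encodes a microtubule inner protein, was at 24.7 CPM per kb, as was Cfap36. Rsph1, a radial spoke head gene, followed at 23.8 CPM per kb, Dnaaf3, a dynein assembly factor, at 22.6, and Rsph9, another spoke head gene, at 16.2. Tekt5 (14.1), Cfap298 (12.7), Foxj1 (12.6), Tekt1 (12) and Drc1 (10.1 CPM per kb) completed the 10 highest. The heavy chains ranked highest in their roles were Dnah9 for the outer arm and Dnah2 for the inner arm, while Cfap57 led the inner arm tether and docking genes and Cfap74 the central apparatus genes. In all, 20 members were below 1 CPM per kb, and Dnaaf4 was the lowest at 0.145.

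Summed over the 69 members, the level was lowest in the entero-hepato gate, at 639 to 739 CPM, and 990 to 1420 CPM in the non-entero-hepato gate. It was 1180 to 1560 CPM in control mTEClo, 1080 to 1340 in Hnf4g-removed, 1020 to 1580 in Hnf4a-removed and 1080 to 1500 in double-mutant mTEClo. In mTEChi it was 927 to 1120 CPM in controls and 1030 to 1400 in double mutants. The 4 mTEClo genotypes overlapped throughout, and no entero-hepato library reached the lowest library of any other group.

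**Figure D1:**
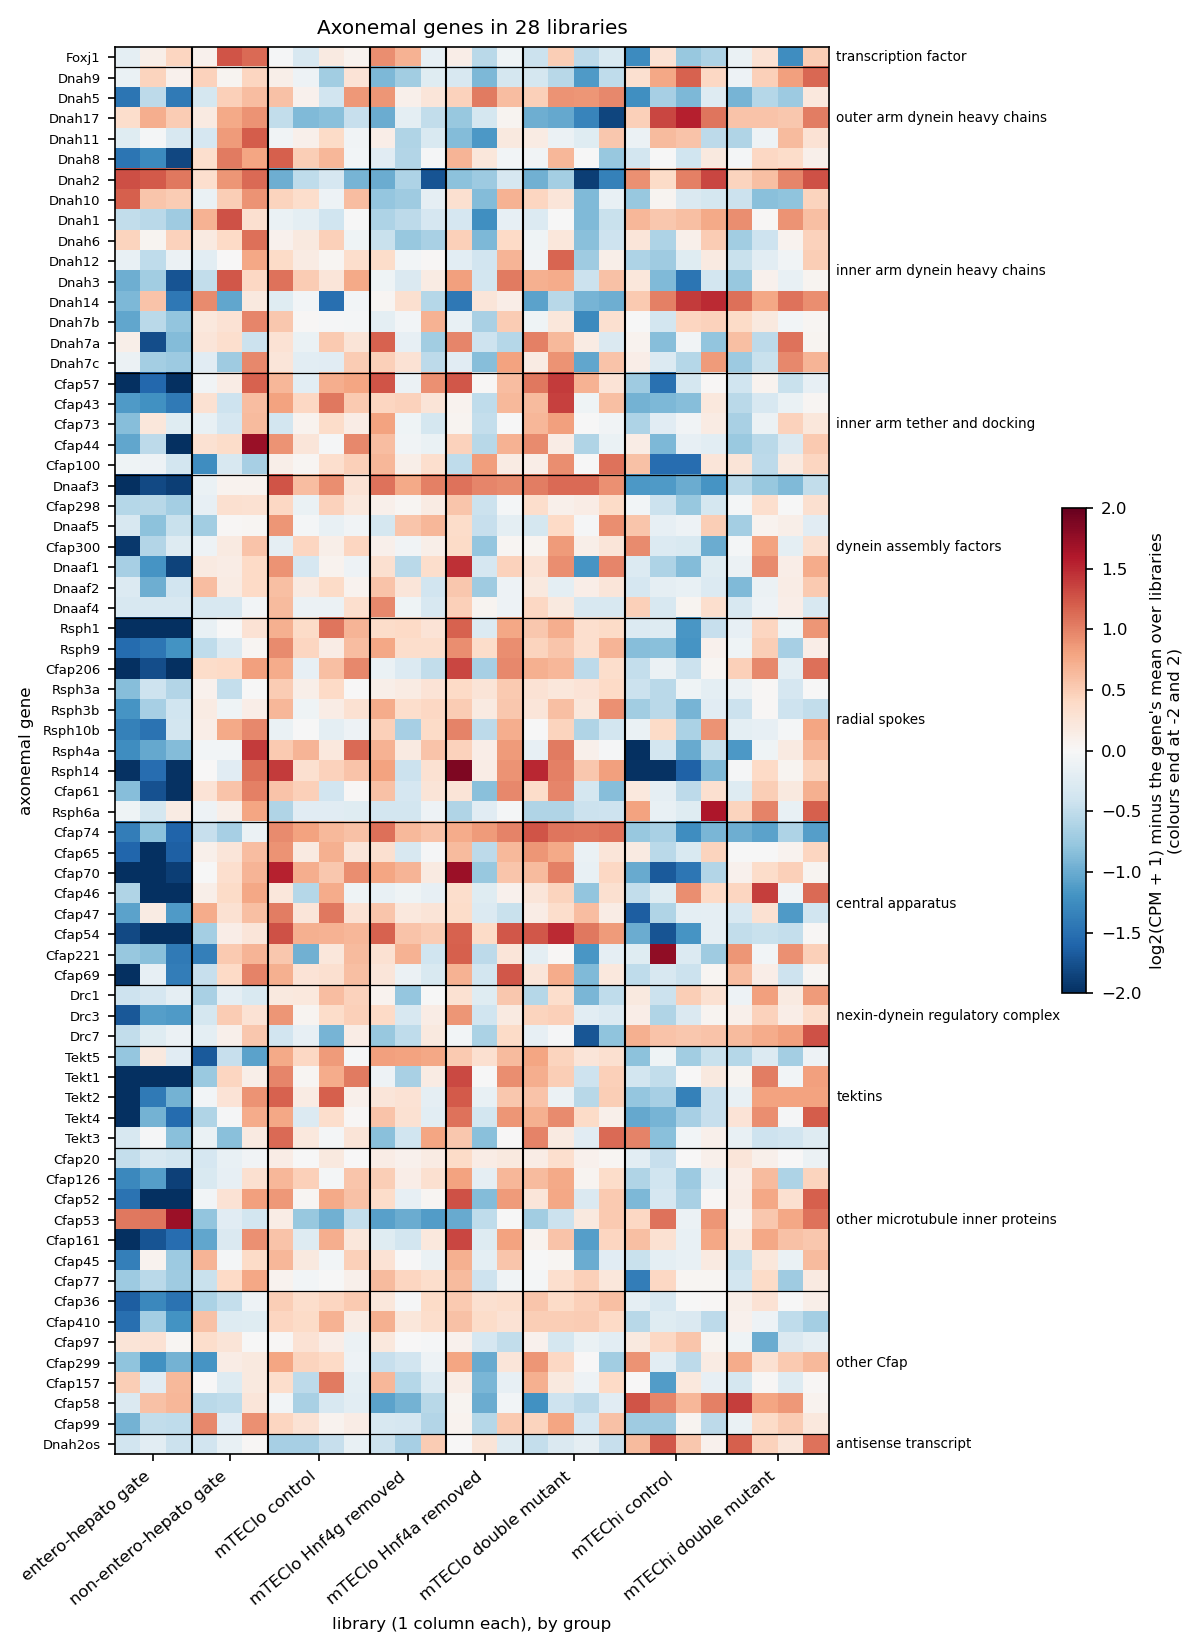
Heat map of log2(CPM + 1) minus each gene's mean over the 28 libraries, for the 69 members (rows, by role) in the 28 libraries (columns, by group). The entero-hepato libraries, whose members sum to 639 to 739 CPM, are below the gene mean for most members.

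Promoter windows from RefSeq (GRCm38.p6), 250 bases before and 50 bases after a start site, were at hand for 55 of the 69 members, and were searched for sites known for ciliary transcription factors. The RFX core site GTTGCC, read on either strand (GGCAAC on the other), was in the windows of 21 of 55 members (38.2%), against 14.1% of 27025 genes. The wider RFX site, GTTNCC and GGNAAC with 0 to 3 bases between, which contains the core site when N is G and C, was in 1 of 55 members (1.82%) against 0.936% of all genes. The forkhead site GTAAACA, of the kind Foxj1 binds, was in 4 of 55 (7.27%) against 4.05%. Among members lower in the entero-hepato gate the core site was in 9 of 26 with a window. A match describes letters only, and binding was not measured. No window was used for Cfap157, Cfap299, Cfap53, Cfap54, Cfap65, Cfap73, Cfap97, Dnaaf1, Dnah2os, Dnah3, Foxj1, Rsph1, Rsph10b or Rsph4a.

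The sequences below are shown because they let the same core site be compared between members that were lower in the entero-hepato gate and members that were not called there. Capitals mark the site shown, and a further copy can stand in lower case, as it does in the Cfap161 run. Each run is read 5′ to 3′ on the gene's strand, and the first 7 belong to genes that were lower. Cfap298, an assembly factor gene, was the one member with the wider site, present at 69 to 55 and at 188 to 175 bases before its start.
Cfap298, chr16:90934897-90934925, minus strand: tttgactGTTGCCCCTGGCAACagccact
Cfap298, chr16:90935016-90935045, minus strand: gggttttgGTTGCCCGGGCAACagctactt
Tekt1, chr11:72361900-72361929, minus strand: tcttctaactagGGCAACgttgcgtccgtc
Tekt2, chr4:126325693-126325722, minus strand: gggcggttgctcGGCAACcagagccgcaaa
Cfap161, chr7:83794881-83794910, minus strand: caactggcaactGGCAACtgcctggtcgtc
Cfap44, chr16:44394768-44394797, plus strand: ggacgttgctatGGCAACcgcagtaaacgg
Cfap74, chr4:155409191-155409220, plus strand: aagcagccttccGTTGCCatggagctgcgc
Dnah10, chr5:124725053-124725082, plus strand: cgcgctggcgccGTTGCCcaggtccccgtt
Cfap20, chr8:95434946-95434975, minus strand: gaatagtcccttGGCAACcaagttccgcgc
Cfap58, chr19:47937641-47937670, plus strand: gggggcgtggcgGTTGCCaggcgaccgaag
The same 6 letters thus stood close upstream of a listed start site in members of both kinds. Windows of Tekt1, Tekt2, Cfap161, Cfap44, Cfap74 and Dnah10 held further copies. The site shown began 35 bases before the start of Tekt1, 59 before that of Cfap161, 19 before that of Cfap44, 20 before that of Dnah10, 94 before that of Cfap20 and 59 before that of Cfap58. Of the starts RefSeq lists, it began 22 or 64 bases before those of Tekt2 and 37 bases before one of those of Cfap74, while it begins after the other start of Cfap74, at base 14 counted from that start.

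The first comparison asked how the entero-hepato gate differed from the non-entero-hepato gate in wild-type mice. Many axonemal genes were lower in the entero-hepato gate, radial spoke and central apparatus genes among them, and 1 was higher. Of the 59 members that passed edgeR's filter on low counts, 33 were lower and 1 was higher at an adjusted p under 0.05 (quasi-likelihood test, Benjamini-Hochberg over 16811 genes). Of all genes tested, 21.8% were lower and 22.7% were higher. The median log2 fold change of the 59 was -1.26, against -0.05 over all genes, and 52 of them were below 0, against 52.5% of all genes. Of these 59, 26 passed the filter only through the non-entero-hepato libraries, where they were higher, and 20 of the 33 lower members were among them, so those calls follow in part from the filter. Of the other 33 tested members, 13 were lower and 1 was higher, with a median of -0.80. The lower ones that passed through both gates include Rsph1, Rsph9, Dnaaf3, Dnah5, Cfap74, Cfap298 and Cfap36. In bulk libraries, fewer cells of a type and less RNA per cell cannot be told apart. The 10 members not tested were Cfap100, Cfap221, Cfap73, Cfap77, Cfap99, Dnaaf4, Dnah2os, Dnah7c, Rsph6a and Tekt3, and Dnaaf4 had no read in any entero-hepato library.

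Among the radial spoke genes 7 of 9 were lower. Of the 9 tested, Cfap206, Cfap61, Rsph14, Rsph4a and Rsph10b passed the count filter only through the non-entero-hepato libraries. Calls among them follow in part from the filter. Rsph1 (chr17:31255019-31277383, minus strand, GRCm38) was at 5.16, 5.22 and 5.62 CPM in the entero-hepato libraries and at 25.2, 27.6 and 34.4 CPM in the non-entero-hepato libraries. The groups were far apart for this spoke head gene, and its 3 entero-hepato libraries were nearly equal. The log2 fold change was -2.45 ± 0.23 (SE, n = 3 and 3), with an edgeR adjusted p of 5.57e-05. Cfap206, which encodes a protein at the base of a radial spoke, was at 2.37, 3.35 and 0.702 CPM against 18.2, 18.5 and 25.3 CPM. Its log2 fold change was -3.28 ± 0.48 (edgeR adjusted p = 0.000651), again with no overlap. Rsph14 had 2 reads in the entero-hepato libraries together and 62 in the others, a ratio of 34.1 with a 95% exact interval of 9.05 to 288 that covers counting error only (edgeR adjusted p = 0.004). The spoke head gene Rsph9 fell by 1.26 on the log2 scale (edgeR adjusted p = 0.00458).

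The central apparatus genes, whose products form the central pair and its projections, were lower in 6 of 7. Of the 7 tested, Cfap46, Cfap54, Cfap69 and Cfap70 passed the count filter only through the non-entero-hepato libraries. Calls among them follow in part from the filter. Cfap74 passed through both gates. Cfap54 (chr10:92775619-93081618, minus strand) was at 2.37, 0.559 and 1.05 CPM in the entero-hepato libraries and at 6.34, 12 and 12.9 CPM in the others. No library of one group reached the other, and the log2 fold change was -2.99 ± 0.57 (edgeR adjusted p = 0.00282). Cfap70 (chr14:20394193-20452226, minus strand) was at 1.29, 1.49 and 1.76 CPM against 9.09, 11.8 and 15.2 CPM. Its log2 fold change was -2.98 ± 0.40 (edgeR adjusted p = 0.000403). The place of Cfap70 in the mammalian axoneme is not settled, and it is counted with the central apparatus genes throughout. Cfap74, the highest of these genes per kb of exon, changed less, with a log2 fold change of -0.89 (edgeR adjusted p = 0.0218).

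Of the genes for proteins inside the doublet microtubules, 3 of 4 tested tektins and 3 of 6 others were lower. The 3 lower tektins (Tekt1, Tekt2 and Tekt4) passed the count filter only through the non-entero-hepato libraries. So did Cfap161 and Cfap52 of the others. Tekt1 (chr11:72344722-72362442, minus strand) was at 2.8, 2.98 and 2.28 CPM against 9.3, 22.2 and 17.8 CPM, and its log2 fold change was -2.62 ± 0.41 (edgeR adjusted p = 0.000933). Its lowest non-entero-hepato library was still above all 3 entero-hepato libraries. Tekt5 did not follow, with 13.1, 26.5 and 19.7 CPM against 6.55, 16.5 and 10.5 CPM, overlapping ranges and a log2 fold change of 0.81 (edgeR adjusted p = 0.12). Cfap52 fell by 3.10 on the log2 scale (edgeR adjusted p = 0.00165). Cfap20, the most abundant member, differed by -0.23 on that scale and did not pass (edgeR adjusted p = 0.135).

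Cfap53 (chr18:74283090-74359986, plus strand), which encodes another microtubule inner protein, was the 1 member that was higher in the entero-hepato gate. It was at 18.5, 18.6 and 29.7 CPM there and at 4.44, 6.97 and 6.27 CPM in the non-entero-hepato gate. All 3 entero-hepato libraries were above the others, and the log2 fold change was 1.90 ± 0.31 (edgeR adjusted p = 0.00118).

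Dynein genes were less uniform. Among the outer arm heavy chains, the force-producing subunits, 2 of 5 were lower: Dnah8 fell by 2.60 on the log2 scale (edgeR adjusted p = 0.000439) and Dnah5 by 1.43 (edgeR adjusted p = 0.00973). Dnah8 had passed the count filter only through the non-entero-hepato libraries. Dnah17 (chr11:118021723-118130634, minus strand), a heavy chain best known from sperm, was at 19.4, 25.5 and 21.8 CPM against 17.1, 25.9 and 28.7 CPM. These ranges overlapped, as did those of Dnah9, and their log2 fold changes were -0.12 and -0.18 (edgeR adjusted p = 0.718 and 0.445). Inner arm heavy chains were lower in 3 of 9, of which Dnah7b shares sequence with Dnah7a and Dnah7c and is uncertain. Of the lower ones, Dnah3 and Dnah7b had passed the count filter only through the non-entero-hepato libraries. Dnah2 and Dnah10 differed by 0.36 and 0.29 on the log2 scale, and neither passed (edgeR adjusted p = 0.189 and 0.453).

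All 3 tested genes of the inner arm tether and docking group, Cfap43, Cfap44 and Cfap57, were lower. All 3 had passed the count filter only through the non-entero-hepato libraries, so these calls follow in part from the filter. In that group Cfap57 had 11 reads in the entero-hepato libraries and 151 in the others, a ratio of 15.1 (95% exact interval 8.2 to 30.9, counting error only). Of the assembly factors 3 of 6 were lower, of which Dnaaf1 had passed the filter only through the non-entero-hepato libraries. Dnaaf3 (chr7:4522933-4532453, minus strand) was at 7.31, 10.6 and 10 CPM against 36.1, 41.8 and 41.8 CPM, with a log2 fold change of -2.10 (edgeR adjusted p = 6.7e-05). The groups did not overlap, although 16.5% of the exon bases of Dnaaf3 are shared with Tnni3 and Gm15873 and its reads may hold some of theirs. Cfap298 fell by 0.83 on the log2 scale (edgeR adjusted p = 0.0157), with 53.6% of its exon bases shared with other genes. Of the nexin-dynein regulatory complex 1 of 3 genes was lower, and Drc1 was not among them (log2 fold change 0.05, edgeR adjusted p = 0.876). Cfap36, which has no assigned place in the axoneme here, fell by 1.12 (edgeR adjusted p = 0.00166), 1 of 2 called among 6 other Cfap genes tested.

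**Figure D2:**
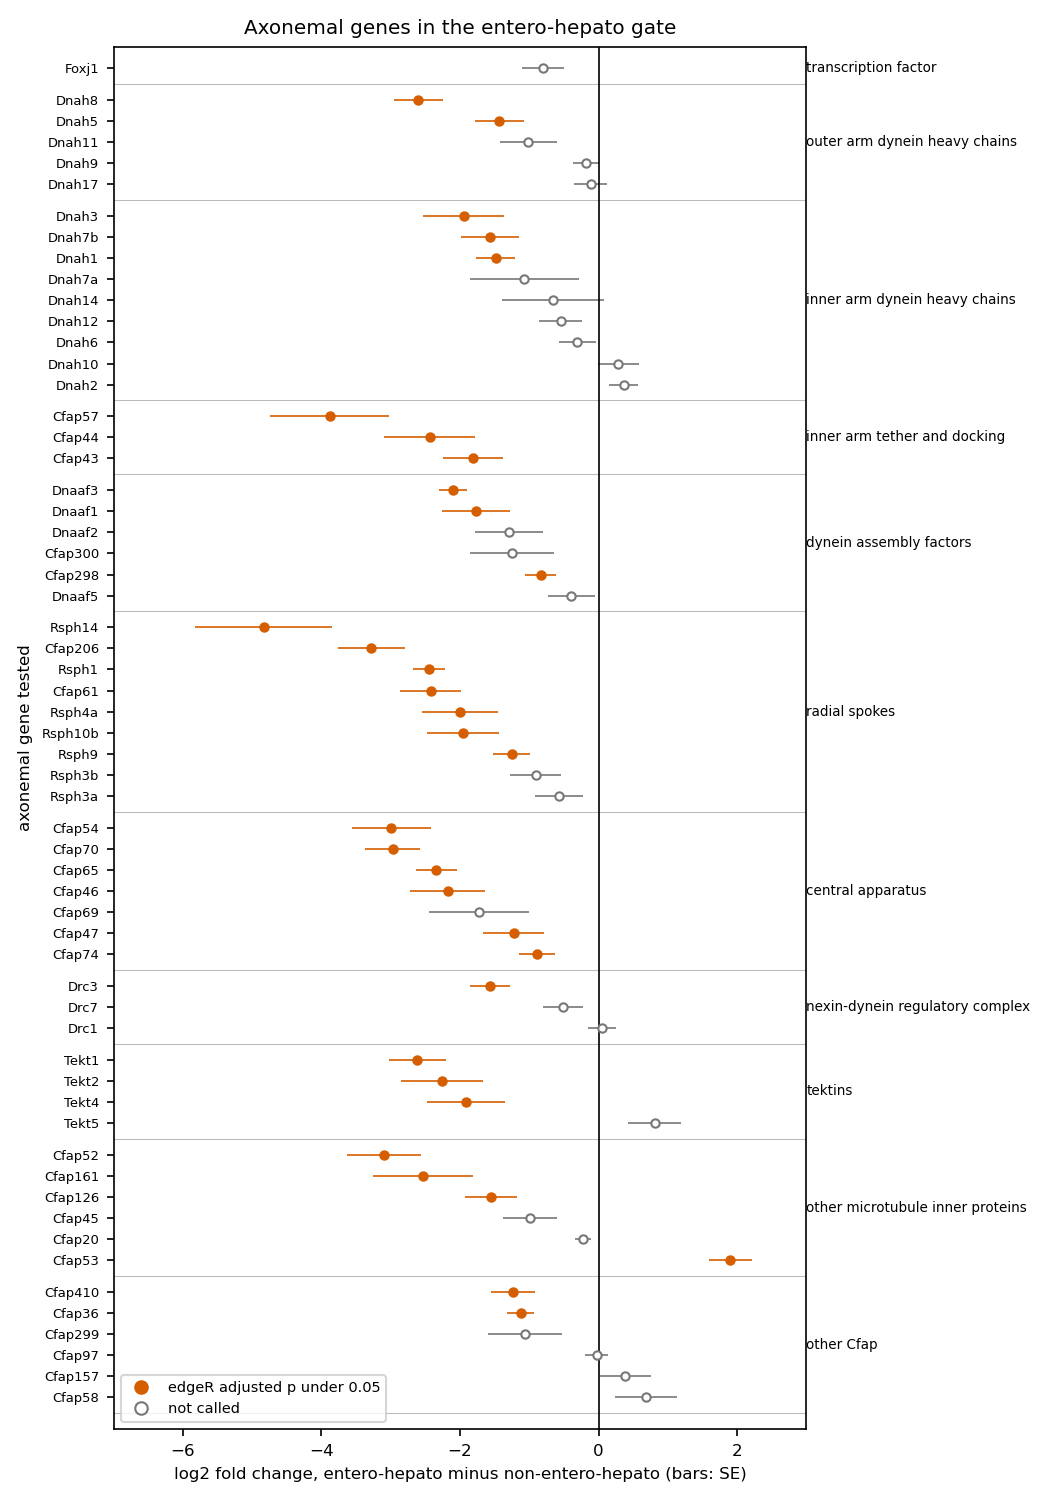
Log2 fold change of the entero-hepato against the non-entero-hepato gate (x axis, points, with SE bars) for the 59 tested members, grouped by role. Points left of 0 are lower in the entero-hepato gate, and Cfap53 is the called member to the right.

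Foxj1 (chr11:116330704-116335399, minus strand), a regulator and marker of ciliated cells, did not pass the test. It was 1 of the 33 tested members not admitted by the count filter through the non-entero-hepato libraries alone. Of these 33, 13 were lower and 1 was higher. Foxj1 was at 26.2, 32.8 and 41.1 CPM in the entero-hepato libraries and at 32.3, 73.6 and 67.7 CPM in the non-entero-hepato libraries. The ranges overlapped through non-entero-hepato replicate 1. The log2 fold change was -0.80 ± 0.30 (edgeR adjusted p = 0.0581), and DESeq2 gave -0.78 with an adjusted p of 0.0306, and edgeR also called it with a replicate block (adjusted p = 0.0172), with plain library totals (0.0125) and without the count filter (0.000157). The call thus depended on the settings within edgeR as well as on the tool.

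Many other cilium genes, from lists of textbook genes that hold no member, were also lower. Which of them passed the count filter only through the non-entero-hepato libraries was not examined. These calls may thus follow in part from the filter. Of 36 tested motile axoneme genes outside the name pattern 28 were lower and 0 higher, including Zmynd10, a dynein assembly factor (log2 fold change -4.49, edgeR adjusted p = 2.31e-05), and Lrrc23, a radial spoke gene (-3.75, 0.000102). Of 11 tested markers of multiciliated cells 7 were lower, with Fam183b at -3.37 (edgeR adjusted p = 0.000207). Of 13 multiciliogenesis regulators 8 were lower, among them Trp73 (log2 fold change -3.53, edgeR adjusted p = 0.000528) and Ccno (-2.85, 0.00865). That list also holds genes not particular to ciliated cells, such as Plk4, Myb, E2f4, E2f5 and Rfx1. Intraflagellar transport and BBSome genes, which serve cilia of all kinds, were lower in 23 and higher in 1 of 37, with Wdr35 at -1.71 (edgeR adjusted p = 9.9e-05).

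Marker lists of other mTEC types and cells moved between the same gates. Tuft cell markers were lower in 12 and higher in 1 of 15, with a summed level of 223 to 522 against 2630 to 3970 CPM, and 17 of 17 proliferation genes were lower (112 to 136 against 1060 to 1350 CPM). Myeloid markers were higher in 5 of 9 tested (821 to 1200 against 303 to 476 CPM), and Epcam was at 1880 to 2240 against 695 to 792 CPM. Their part in the result was not tested. Leaving out non-entero-hepato replicate 3 left 21 members lower, the fewest with any 1 library out, and 21 of the 33 were called lower with each of the 6 libraries left out in turn. Of the members named with values above, Cfap74 and Cfap298 lost the call in 1 or more of those fits, both without entero-hepato replicate 3 and both without non-entero-hepato replicate 3, Cfap74 also without entero-hepato replicate 1 and Cfap298 also without non-entero-hepato replicate 2. None of the 8 lower members of largest fold lost the call in any of the 6, and all 8 had passed the count filter only through the non-entero-hepato libraries.

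**Figure D3:**
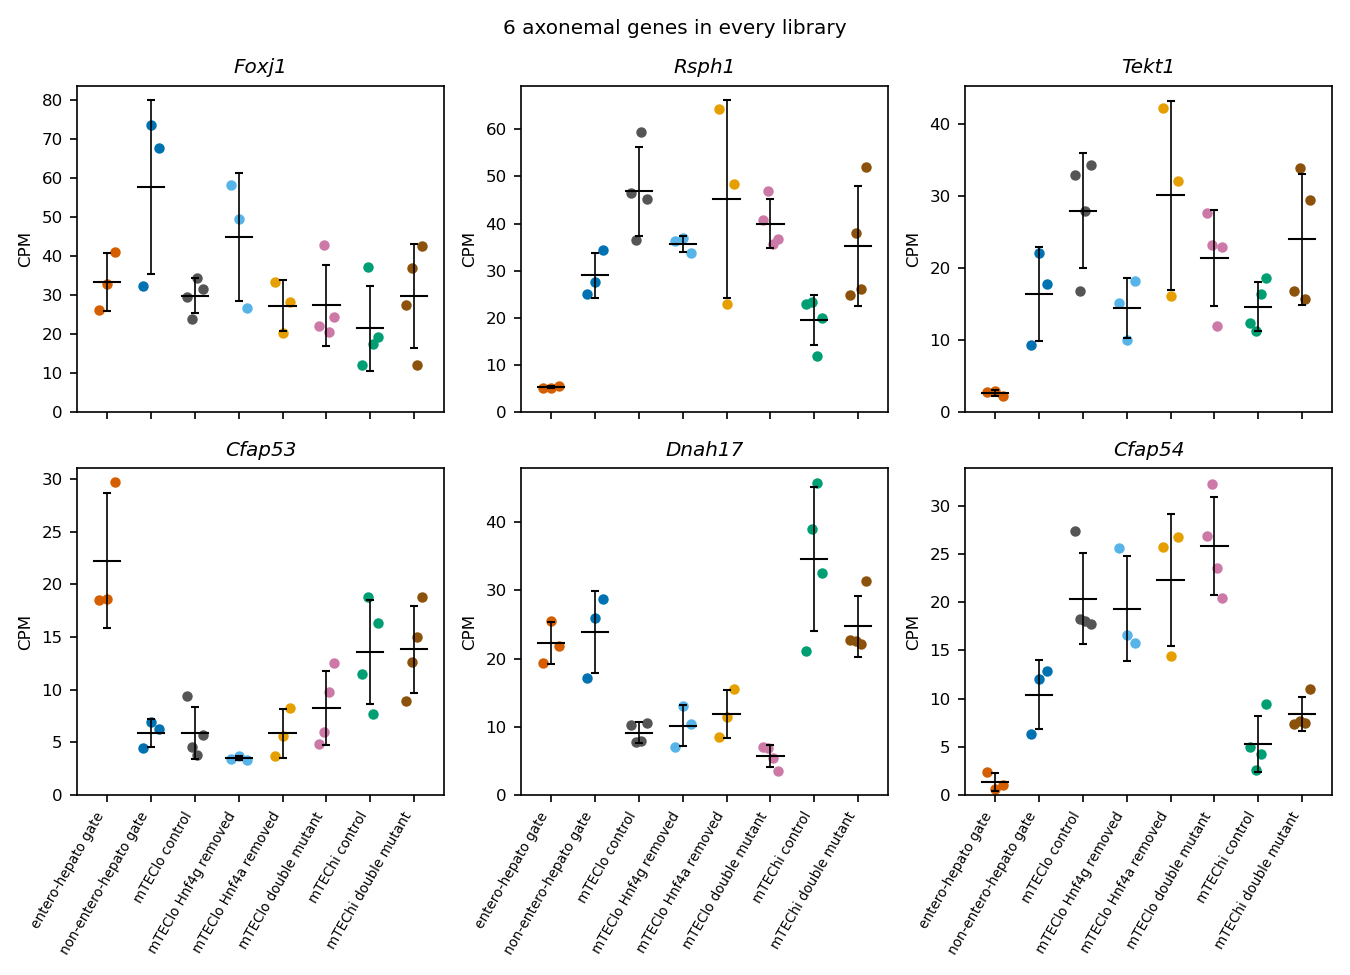
CPM in each library (points) for Foxj1, Rsph1, Tekt1, Cfap53, Dnah17 and Cfap54 in the 8 groups, with the group mean and SD as bars. Rsph1, Tekt1 and Cfap54 are lowest in the entero-hepato gate, Cfap53 is highest there, and Dnah17 is higher in both mTEChi groups than in any mTEClo group.

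The mTEChi and mTEClo sorts were compared within each genotype. In controls, spoke, tektin and central apparatus genes were lower in mTEChi, while dynein heavy chains were split, 5 of 15 higher, led by Dnah17 and Dnah2, and 3 of 15 lower. Of 67 members tested, 27 were lower and 10 were higher (edgeR, adjusted p under 0.05), against 20.5% lower and 22.4% higher of 20095 genes. The higher share was thus 10 of 67, below that of all genes, and the median log2 fold change of the members was -0.62 against 0.04. Dnah2os and Rsph6a, 2 of the 10 higher members, passed the count filter only through the mTEChi libraries, where they were higher. In the fit of the 2 groups alone neither was tested, and 8 members were higher and 27 lower of 63. Cfap73 and Dnaaf4 were not tested in either fit.

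Rsph1 was at 22.9, 23.3, 11.9 and 20.1 CPM in control mTEChi and at 46.4, 36.6, 59.4 and 45.2 CPM in control mTEClo. All mTEClo libraries were above all mTEChi libraries, and the log2 fold change of mTEChi against mTEClo was -1.26 ± 0.24 (n = 4 and 4, edgeR adjusted p = 0.00047). Rsph14 was at 0, 0, 0.29 and 1.14 CPM in mTEChi and at 9.39, 3.93, 4.42 and 4.86 CPM in mTEClo. On 12 against 161 reads the ratio was 13.0 (95% exact interval 7.24 to 25.7, counting error only). In all, 7 of 10 spoke genes were lower, including Rsph4a (log2 fold change -1.81, edgeR adjusted p = 0.0123) and Rsph9 (-1.22, 0.00209). Rsph3a and Rsph3b are near copies of each other and their calls are uncertain.

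Dnaaf3 and Cfap74 had the smallest adjusted p-values among the members. Dnaaf3 was at 17.4, 17.5, 19.4 and 17.0 CPM in control mTEChi and at 96.1, 61.3, 76.2 and 48.9 CPM in control mTEClo. The ranges were far apart, with a log2 fold change of -1.98 ± 0.17 (edgeR adjusted p = 8.13e-08). Cfap74, of the central apparatus, was at 25.4, 27.5, 18.0 and 22.9 CPM against 85.2, 77.0, 69.5 and 66.6 CPM, with a log2 fold change of -1.67 ± 0.14 (edgeR adjusted p = 7.7e-08). Its groups did not overlap either. Of the 8 central apparatus genes 4 were lower, including Cfap70 (-2.34, edgeR adjusted p = 2.86e-05) and Cfap54 (-1.91, 9.78e-05). Tektins were lower in 4 of 5, with Tekt2 at -1.68 (edgeR adjusted p = 0.00132), Tekt5 at -1.06 (0.00113) and Tekt1 at -0.92 (0.0214). Reads of Tekt2 may include those of Gm12945 on the other strand, since 20.8% of its exon bases are shared. Cfap43 and Cfap57, of the tether and docking group, fell by 1.39 and 1.22 on the log2 scale (edgeR adjusted p = 0.00553 and 0.0146). Cfap298 (-0.66, edgeR adjusted p = 0.0102) and Cfap36 (-0.57, 0.000239) changed less. Foxj1 (-0.47, edgeR adjusted p = 0.299), Cfap20 (-0.21, 0.165) and Drc1 (-0.20, 0.586) did not pass.

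Of the 10 higher members 5 were heavy chains. Dnah17 was at 21.1, 39.1, 45.8 and 32.5 CPM in control mTEChi and at 10.3, 7.7, 7.96 and 10.6 CPM in control mTEClo. Every mTEChi library was above every mTEClo library, and the log2 fold change was 1.93 ± 0.26 (edgeR adjusted p = 1.1e-05). Dnah2 (chr11:69420809-69549110, minus strand), an inner arm heavy chain gene, was at 38.1, 26.2, 40.6 and 51.7 CPM against 9.53, 13.6, 15.5 and 9.86 CPM. It also did not overlap, with a log2 fold change of 1.70 ± 0.28 (edgeR adjusted p = 0.000106). Dnah2os (chr11:69448548-69453676, plus strand) lies within Dnah2 on the other strand and shares 36.3% of its exon bases with it. It had 38 reads in control mTEChi and 4 in control mTEClo, a ratio of 9.8 (95% exact interval 3.53 to 37.8, counting error only), and since the reads carry no strand, its value and that of Dnah2 cannot be told apart there. The 3 lower heavy chains, chosen for mention after their values were seen, were Dnah3 (-1.34, edgeR adjusted p = 0.0137), Dnah5 (-1.11, 0.00502) and Dnah8 (-0.81, 0.0485), and the call of Dnah8 was lost in 6 of 8 fits that left out 1 library. Dnah14 rose by 1.70 on the log2 scale (edgeR adjusted p = 0.000762), Cfap58 by 1.46 (0.00183), Cfap53 by 1.21 (0.0154), Drc7 by 0.94 (0.0251) and Dnah9 by 0.79 (0.0207). Rsph6a, a spoke gene known from sperm, had 45 against 6 reads, a ratio of 7.74 (95% exact interval 3.29 to 22.2), and its libraries overlapped between the sorts. Its edgeR adjusted p was 0.0295, and the call was lost without the count filter and in 6 of 8 fits that left out 1 library. Without control mTEClo replicate 3, 6 members were higher. The call of Cfap53 was lost without that library or control mTEChi replicate 2, that of Dnah9 without it or control mTEChi replicate 3, and that of Drc7 without it, control mTEClo replicate 1 or control mTEChi replicate 1. That of Tekt1 was lost without control mTEClo replicate 1 or 4 or control mTEChi replicate 1 or 2.

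In double mutants, 10 of 67 members were higher and 10 lower in mTEChi than in mTEClo (edgeR, adjusted p under 0.05), against 27.7% higher and 23.1% lower of all genes. The members' median log2 fold change was -0.08, near that of all genes (0.06). These libraries are separate from the controls: 9 of the 10 members higher in controls were also higher in double mutants, which is 9 of the 10 there too. All 10 members lower in double mutants were among the 27 lower in controls, and 0 members were called in opposite directions. The same overlap was not counted over all genes, so it is not read as particular to these members. In fits of the 2 groups alone, which did not test Dnah2os and Rsph6a, 8 members were higher in each genotype, 7 of them in both. Dnah17 was at 22.7, 22.6, 22.2 and 31.4 CPM in double-mutant mTEChi and 7.09, 6.82, 5.41 and 3.49 CPM in double-mutant mTEClo, with no overlap and a log2 fold change of 2.12. Dnah14 and Dnah2 rose by 2.16 and 2.15, Cfap58 by 1.63 and Drc7 by 1.53 (edgeR). Rsph6a had 42 against 2 reads (ratio 20.9, 95% exact interval 5.44 to 178) and Dnah2os 50 against 7 (7.11, 3.21 to 18.6). The largest declines were those of Cfap74 (-2.08), Dnaaf3 (-1.74), Cfap54 (-1.61), Dnah5 (-1.28), Cfap57 (-1.25), Cfap43 (-1.03), the uncertain Rsph3b (-0.92) and Tekt5 (-0.89). The call of Cfap43 was lost without double-mutant mTEChi replicate 1 or 2 or double-mutant mTEClo replicate 2.

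Several genes lower in control mTEChi did not pass in double mutants. Rsph1 was at 24.8, 38.0, 26.1 and 52.1 CPM in double-mutant mTEChi and at 40.8, 47.0, 35.6 and 36.7 CPM in double-mutant mTEClo. These ranges overlapped, and the log2 fold change was -0.17 (edgeR adjusted p = 0.564). The values were -0.29 for Cfap70, 0.49 for Tekt2, and 0.17 for Tekt1, none called. Foxj1, not called in either genotype, was at 0.13. Whether these differences differed between genotypes was tested directly and is given with the mutants below.

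**Figure D4:**
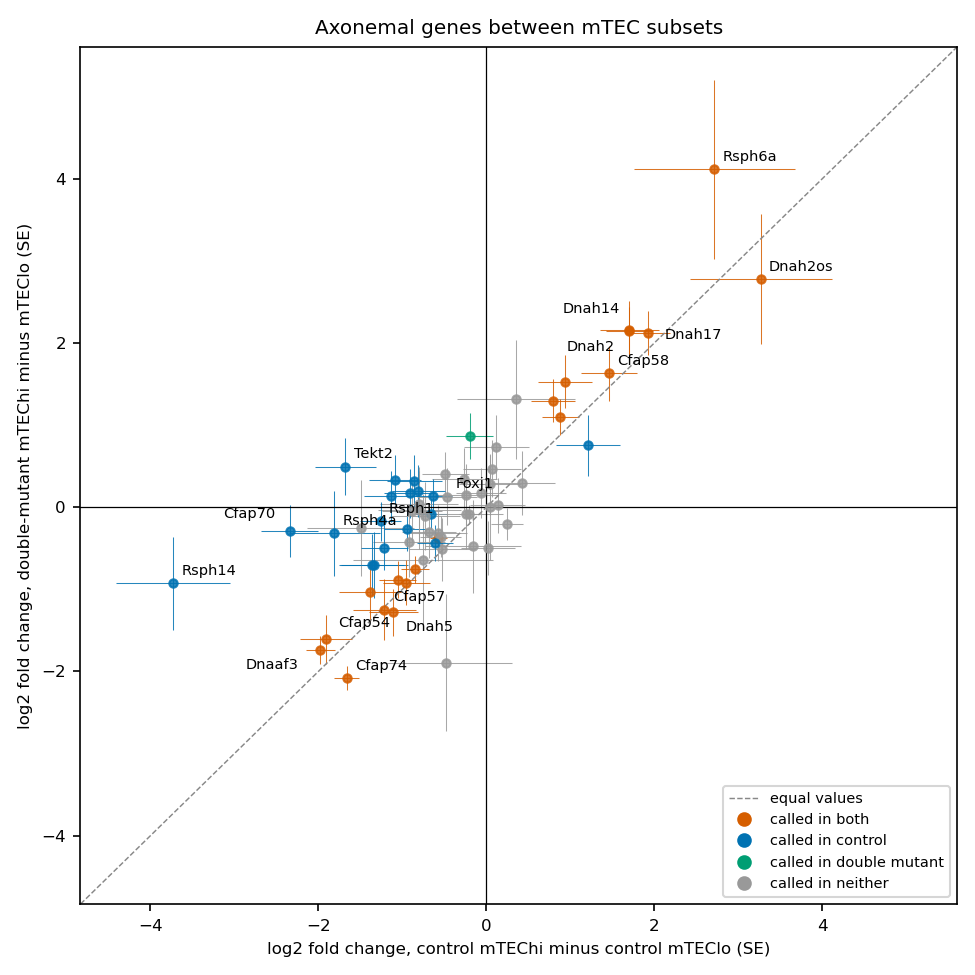
Log2 fold change of mTEChi against mTEClo in controls (x axis) and in double mutants (y axis) for the 67 tested members, coloured by where they were called. Dnah17, Dnah2 and Dnah14 are above 0 in both, and Cfap74, Dnaaf3 and Cfap54 are below 0 in both.

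Among the other cilium genes, control mTEChi had 18 of 38 further axoneme genes lower and 0 higher (Ttc25, an outer arm docking gene, at -2.89, edgeR adjusted p = 1.39e-07) and 10 of 15 multiciliated cell markers lower and 0 higher (Ccdc153 at -2.68, 8.39e-05). Of 37 intraflagellar transport and BBSome genes, 16 were lower and 1 was higher (Ift81 at -2.50, edgeR adjusted p = 3.09e-09). The multiciliogenesis regulators went the other way, with 7 of 15 higher, including Trp73 (1.30, edgeR adjusted p = 0.0189) and Mcidas (1.05, 0.0134). Of the same list 1 was lower, Rfx3 (edgeR adjusted p = 0.000631). The part in these counts of its genes not particular to ciliated cells was not examined. In double mutants, 4 of 38 further axoneme genes were lower and 3 higher, with a median of 0.09. Of 15 multiciliated markers 7 were lower and 1 higher, of 15 regulators 9 were higher and 2 lower, and of 37 intraflagellar transport and BBSome genes 13 were lower and 3 higher.

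The sorts differed in other cell types as well. In control mTEChi all 15 tuft markers were lower (605 to 1060 against 12000 to 15800 CPM summed), all 13 Aire-stage genes were higher (54300 to 57000 against 9000 to 15900 CPM) and 15 of 17 proliferation genes were higher (788 to 992 against 207 to 379 CPM). Myeloid markers were higher in 8 of 10 (1320 to 1790 against 401 to 661 CPM), and thymocyte markers were higher in 8 and lower in 2 of 12 tested (76.5 to 119 against 58.0 to 81.4 CPM). Spermatid markers were higher in 5 of 8 tested, though their summed level was 89.0 to 110 against 85.8 to 101 CPM, and the protamine genes Prm1 and Prm2 reached at most 3.64 and 3.85 CPM over all libraries. The part of these cells in the result was not tested.

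Removal of Hnf4 genes was compared with controls in mTEClo. No axonemal gene passed the edgeR test in any of the 3 mutant groups, which share the same 4 control libraries, and few genes of the whole table did. Of 66 members tested in double-mutant mTEClo, 0 were higher and 0 lower, against 0.16% and 0.581% of 18775 genes. At an unadjusted p under 0.05 there were 1 higher and 4 lower members, against 12.3% of all genes in either direction, and DESeq2 called 0 members. In Hnf4a-removed mTEClo 0 members were higher or lower, against 0.00533% and 0% of all genes, with 1 member at an unadjusted p under 0.05 (6.02% of all genes) and 0 called by DESeq2. In Hnf4g-removed mTEClo the members called were also 0 and 0, against 0% and 0.0959%, with 7 lower members at an unadjusted p under 0.05 (8.19% of all genes in either direction) and 0 called by DESeq2. These shares of members are near or below those of all genes. The medians of the members were -0.06, -0.06 and -0.19 in that order. In double-mutant mTEClo 2 of 15 tuft markers were higher (16900 to 18400 against 12000 to 15800 CPM summed), and Aire-stage genes, 0 of 13 called, summed to 6160 to 7570 against 9000 to 15900 CPM. Their part in the members' values was not tested.

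Rsph1 was at 36.4, 37.0 and 33.8 CPM in Hnf4g-removed and at 64.3, 22.9 and 48.5 CPM in Hnf4a-removed mTEClo, and its libraries overlapped the controls in each. Against controls its log2 fold changes were -0.23 in double mutants, -0.05 in Hnf4a-removed and -0.39 in Hnf4g-removed libraries (edgeR adjusted p of 0.763 or more). Foxj1 was at 29.6, 24, 34.5 and 31.6 CPM in controls and at 58.4, 49.7 and 26.8 CPM in Hnf4g-removed libraries, of which the third lay within the control range. Its log2 fold change there was 0.59 (edgeR adjusted p = 0.622), and it was -0.13 in double-mutant and -0.14 in Hnf4a-removed libraries. Tekt1 was at 15.2, 10 and 18.3 CPM in Hnf4g-removed against 32.9, 16.8, 27.9 and 34.4 CPM in control mTEClo, overlapping through control replicate 2. It was called lower only when no count filter was applied (log2 fold change -0.94), as were Cfap206 and Dnah10, genes chosen for mention after their values were seen.

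In mTEChi the double mutant was likewise compared with its controls. Again no member passed in edgeR. Of 64 tested members 51 had a log2 fold change above 0 and 13 below, while 48.2% of all genes were below 0. The members' median was 0.31 against 0.01 over all genes. The members were read in the same libraries and are not independent, so this count is not a test. The called members were 0 higher and 0 lower, against 0.038% and 0.597% of 18413 genes. At an unadjusted p under 0.05 there were 13 higher members and 1 lower, Cfap97 (-0.68), against 11.2% of all genes in either direction. DESeq2 called 4 members higher, against 0.683% of the 16975 genes it adjusted. These 4, Tekt2, Tekt4, Cfap70 and Cfap52, were chosen for description after their values were seen. Tekt2 was at 5.49, 6.01, 3.33 and 7.06 CPM in control mTEChi and at 9.04, 18.4, 18.5 and 18.3 CPM in double-mutant mTEChi. All double-mutant libraries were above all controls, with 1 of them well below the other three. The log2 fold change was 1.55 ± 0.33, the edgeR adjusted p 0.0608 and the DESeq2 adjusted p 0.00107.

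Tekt4 was at 4.21, 4.55, 5.65 and 6.71 CPM in controls and at 11.8, 19.1, 9.36 and 23.5 CPM in double mutants, a log2 fold change of 1.59 (edgeR adjusted p = 0.0651, DESeq2 0.00165). Cfap70 was at 4.03, 2.18, 2.75 and 5.8 CPM against 9.81, 12.1, 13.2 and 9.58 CPM, a log2 fold change of 1.58 (edgeR adjusted p = 0.083, DESeq2 0.00271). Neither gene overlapped between genotypes, and Cfap52 differed by 1.18 (edgeR adjusted p = 0.163, DESeq2 0.0296). Rsph14 was at 2.91, 4.19, 3.12 and 4.36 CPM in double mutants, above each control (0, 0, 0.29 and 1.14 CPM). On 104 against 12 reads the ratio was 8.12 (95% exact interval 4.45 to 16.2, counting error only), with an edgeR adjusted p of 0.136. Rsph14 passed the count filter only through the double-mutant libraries, where it was higher, so its test follows in part from the filter. Rsph1 differed by 0.86 ± 0.28 on the log2 scale (edgeR adjusted p = 0.247), each double-mutant library being above each control. Foxj1 was at 12.1, 37.3, 17.5 and 19.3 CPM in control and at 27.6, 37.0, 12.2 and 42.7 CPM in double-mutant mTEChi, overlapping ranges with a log2 fold change of 0.48 (edgeR adjusted p = 0.7).

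**Figure D5:**
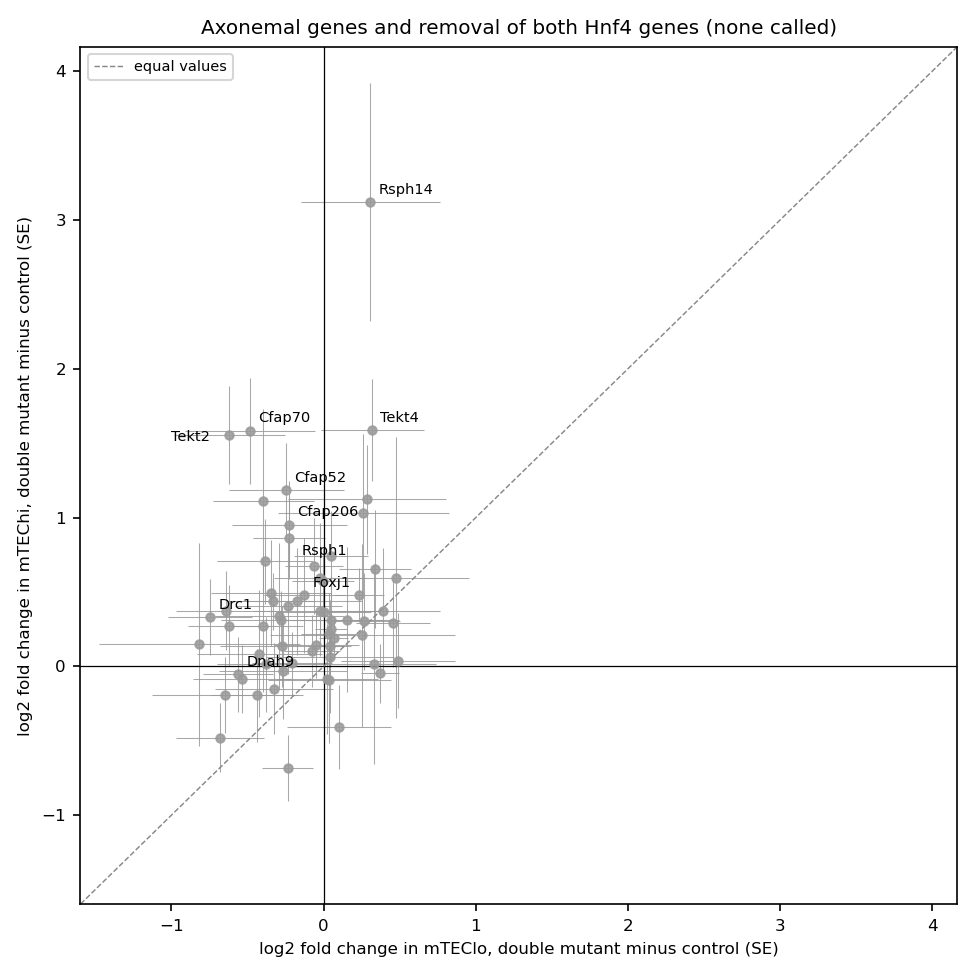
Log2 fold change of double mutant against control in mTEClo (x axis) and in mTEChi (y axis) for the 63 members tested in both. In mTEChi 51 of them are above 0, 53 are higher on the y axis than on the x axis, and none was called in either. These counts are of genes read in the same libraries and are not a test.

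The difference between the double-mutant effect in mTEChi and that in mTEClo was tested as an interaction over 16 libraries. Of 67 members 0 were called higher and 0 lower in edgeR, against 0.0398% and 0.0199% of 20095 genes. At an unadjusted p under 0.05 there were 13 members, all higher, against 11.4% of all genes in either direction. Of the 67 members 55 were above 0 and 12 below, while 45.8% of all genes were below 0. The members' median was 0.40 against 0.05 over all genes. DESeq2 called 3 members higher, against 1.57% of the 16192 genes it adjusted. The differences of log2 fold changes were 2.06 for Cfap70 (edgeR adjusted p = 0.0905, DESeq2 0.00533), 2.17 for Tekt2 (0.0947, DESeq2 0.00687) and 2.80 for Rsph14 (0.205, DESeq2 0.03). For Rsph1 the difference was 1.09 ± 0.34 (edgeR adjusted p = 0.205) and for Foxj1 0.60 (0.72). Thus the weaker contrast between sorts for Rsph1 in double mutants was not called a difference between genotypes.

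None of the 4 other lists of cilium genes had a gene called by edgeR in any mutant comparison or in the interaction. In mTEChi the further axoneme genes had a median log2 fold change of 0.68 (38 tested) and summed to 529 to 782 CPM in double mutants against 305 to 524 CPM in controls. In the interaction, other lists had positive medians too: proliferation genes at 1.13 with 1 of 17 called higher (Birc5) and Aire-stage genes at 0.67 with 1 of 13 called higher (H2-Eb1). Their part in the members' values was not tested. In mTEChi, multiciliated markers summed to 260 to 392 against 184 to 276 CPM. Of the markers of other cell types in mTEChi, 1 of 12 neuroendocrine genes was lower and no other listed gene was called, and tuft markers summed to 831 to 1270 against 605 to 1060 CPM.

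In mTEClo the members also varied together between libraries of a group, in large part through 2 libraries, and less so in mTEChi. The gate libraries were not examined in this way. After group means were removed, the Pearson correlation of log values with Rsph1 over the 14 mTEClo libraries had a median of 0.56 across 54 members, with 30 above 0.5. Over 12962 genes the median was -0.05 and 4.56% were above 0.5. The genes most like Rsph1 were Cfap52 (r = 0.90), Cfap206 and Dnah6 (0.85 each), Tekt4 (0.83) and Cfap298 (0.80), and Foxj1 had 0.62. Spearman's rho was 0.72, 0.71, 0.78, 0.77 and 0.50 for the first 5 and 0.78 for Foxj1, and without the 2 libraries farthest from the median of Rsph1 their r was 0.70, 0.66, 0.67, 0.69, 0.45 and 0.63. Without those 2 libraries the median over the 54 members was 0.30, with 16 above 0.5, against 0.01 and 7.95% for all genes, so much of the correlation rests on them. With all 14 libraries, Dnah5 (-0.42), Cfap53 (-0.27), Cfap74 (-0.09) and Dnah17 (-0.01) were the 4 below 0. Over the 8 mTEChi libraries the median was 0.28, with 18 of 54 members above 0.5 and 16 below 0, against 10.1% above 0.5 for 14174 genes. Without the 2 farthest libraries the median was 0.22 and 14 members were above 0.5, against 17.2% of all genes. These values describe libraries that share a sort and differ in depth, and both genes of each pair were read in the same libraries.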

How the data were processed

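Bulk RNA sequencing was done on 28 libraries of sorted mTECs in 8 groups. Per the labels' protocols, 1000 cells per library were lysed, RNA was primed with oligo(dT), and libraries were cut with a transposase, amplified for 18 PCR cycles and read as paired ends of 38 bases, without strand or molecular identifiers. The deposited values are unnormalized read counts, made by the authors with STAR 2.7.3a, featureCounts and build mm10, per the submitters' processing notes. Every column matched a sample title. Total counts of 4330120 to 8342583 per library set the counting precision, and intervals cover counting error only, since PCR copies are not independent molecules. Replicate libraries differed by more than sampling noise (chi-square per degree of freedom at least 5.93). Thymi are numbered in the labels without a statement that each is another animal, and p-values thus measure only the spread of these samples, possibly technical.

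Whole tables were fitted with edgeR 4.0.16 in R 4.3.3 (TMM, quasi-likelihood test, filterByExpr with minimum count 10 and minimum total 15), tested on simulated data first. Benjamini-Hochberg adjustment ran over all genes tested, and genes were called at an adjusted p under 0.05. Fits held 6 gate, 14 mTEClo, 8 mTEChi and 16 mTEClo and mTEChi libraries, for 8 comparisons. Errors of log2 fold changes are SE. CPM used TMM over the 28 libraries, and exon lengths and positions came from GENCODE M21 (GRCm38), in which 66 members matched by symbol and 3 by a RefSeq synonym. Exon bases were shared with another gene at over 10% in 12 members and not at all in 37. The correlations took genes with a mean of at least 5 CPM. Scripts used Python 3.11.15, pandas 2.3.3 and scipy 1.17.1.

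Named are Foxj1 and Rsph1, up to 8 called members of largest fold in each direction, the 10 members highest in CPM per kb, the highest of each role and up to 4 called genes of smallest p per cilium list, with others said to be chosen after their values were seen. Genes given for contrast, such as Dnah17, Cfap53, Tekt2 or Tekt5 where they did not pass, were chosen that way too. The members and lists were chosen with earlier results of these data known. Alternatives were DESeq2 1.42.0, plain library totals, no count filter, a fit of the 2 groups compared alone, a replicate block and leaving out each library.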

Additional observations from a re-analysis of the deposited data

Results flagged for a closer look

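For 35 members in each of the 4 groups of 4 libraries, and for the members' summed level in them, 144 sets of 4 values were examined, and 12 sets, all of single genes, held 1 library far from the other 3 (the gap to the nearest, as a share of the range, above Dixon's critical value). Chance flags about 1 in 20 such groups.

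In control mTEChi, Cfap43 was at 8.65 CPM in replicate 4 against 3.3 to 3.62 in the others, and Drc7 at 22.7 CPM in replicate 1 against 20.0 to 20.4. In control mTEClo, replicate 1 was highest for Cfap54 (27.4 CPM, others 17.7 to 18.3) and for Rsph14 (9.39 CPM, others 3.93 to 4.86). It was lowest for Rsph6a, at 0 CPM against 0.286 to 0.302, a gene with few reads there. Replicate 2 was lowest for Cfap57, at 5.89 CPM against 11.6 to 12.7.

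In double-mutant mTEClo, Cfap74 was at 106 CPM in replicate 1 against 92.0 to 94.0, and Rsph4a at 13.3 CPM in replicate 2 against 5.22 to 6.47. In double-mutant mTEChi, replicate 4 was highest for Cfap54 (11 CPM, others 7.36 to 7.7) and Dnah17 (31.4 CPM, others 22.2 to 22.7). Rsph3b was highest in replicate 2, at 8.71 CPM against 5.85 to 6.24, and is a near copy of Rsph3a. Tekt2 was lowest in replicate 1, at 9.04 CPM against 18.3 to 18.5.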

How the results depend on the processing

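In the gate comparison, members called lower were 36 with DESeq2, 43 with plain library totals, 38 without a count filter, 34 with a replicate block and 21 to 37 with 1 library left out. Plain totals moved the median of all genes to -0.41 on the log2 scale. Members called higher were 2 without a filter, 2 with the replicate block and 1 to 2 with a library out. The second was Tekt5 with the block and without non-entero-hepato replicate 2. Foxj1 had an adjusted p of 0.0172 with the block, 0.0125 with totals, 0.000157 without a filter and 0.00498 to 0.204 with a library out.

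In control mTEChi against mTEClo, 6 to 9 members were higher and 22 to 29 lower with a library out, and in double mutants 9 to 11 in each direction. Rsph6a was lost in controls with the replicate block (adjusted p = 0.0618). In mTEChi, double mutants had 4 members higher with DESeq2, 7 without a filter and 0 to 1 with a library out. The 1 was Rsph14 without control replicate 4, Tekt2 without double-mutant replicate 1 and Tekt4 without double-mutant replicate 3. In that fit Rsph14 passed the count filter only through the double-mutant libraries. The interaction gave 3 higher with DESeq2 and 2 without a filter. In mTEClo, members lower without a filter were 2 in double mutants and 3 in Hnf4g-removed libraries. With a library out, mTEClo counts of called members were 0 throughout. The cause of these changes was not tested.

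Values of named genes reversed sign in 11 of 1170 cases, none called. In the gate comparison, plain totals gave Dnah2 0.00 (just below 0) and Drc1 -0.31. With a library out, Drc1 was -0.08 (without non-entero-hepato replicate 1) to 0.16, and Dnah17 was -0.30 to 0.05, above 0 without entero-hepato replicate 1 (0.01) or non-entero-hepato replicate 3. In Hnf4a-removed mTEClo, Foxj1 was -0.33 to 0.05 and Rsph1 -0.42 to 0.27, both highest without Hnf4a-removed replicate 2, and Rsph1 was 0.08 without control replicate 3. In double-mutant mTEChi against mTEClo, Foxj1 was -0.10 (without mTEChi replicate 4) to 0.42, and Tekt1 was -0.05 (without mTEChi replicate 2) to 0.32, with -0.04 without mTEClo replicate 3. In 1099 cases direction and side of the threshold held. DESeq2 gave no adjusted p for Rsph14 in double-mutant against control mTEChi.

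Replicate numbers were shared between groups. Deviations of same-numbered gate libraries correlated at 0.028 to 0.05 across genes, against -0.035 to 0.003 for gate libraries of different number. Between mTEChi and mTEClo, same-numbered pairs were at 0.021 to 0.035 in controls, within the -0.056 to 0.043 of other pairs. In double mutants they were at 0.017 to 0.064, within -0.112 to 0.07. Whether same-numbered libraries share a thymus was not tested, and the main fits did not use the number. Depth limits the rarest members, such as Rsph14, Rsph6a, Dnah2os and Dnaaf4.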
